A study of Mus musculus with 48 samples.

Results

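The genes described here are those of the aryl hydrocarbon receptor (AHR) and of the tryptophan enzymes that supply its ligands, in mouse thoracic aorta during β-aminopropionitrile (BAPN)-induced aortic dissection. They were taken by symbol as 10 of the 18782 genes in the table: the receptor Ahr, its partner Arnt, the target genes Ahrr, Cyp1a1, Cyp1b1, Tiparp and Nqo1, and the enzymes Ido1, Il4i1 and Kynu. The comparison asked whether the receptor and its targets moved together. All 48 mice were wild-type C57BL/6J, with 1 library per mouse. BAPN, which blocks lysyl oxidase and so weakens the aortic wall, was dissolved at 0.4% in the water the treated mice drank over 28 days, starting when they were 3 weeks old. Control mice on normal water formed the groups FeCon (female, 10) and MaCon (male, 10). BAPN-treated mice were split by outcome into FeNonAD (8) and MaNonAD (4), which had no lesion, and FeAAD (9) and MaAAD (7), which had a dissection or aneurysm. Mice that died of rupture are in none of these groups, so NonAD and AAD are outcomes among survivors and were not assigned. Each library is from a piece of saline-perfused thoracic aorta, and the paper states that the RNA came from lesioned segments. In such tissue, a change in the number of cells of a type cannot be told apart from a change of RNA per cell.

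AHR is a transcription factor that waits in the cytoplasm in a complex with the chaperone HSP90. When it binds a ligand, such as dioxin, a plant indole or a tryptophan metabolite, it enters the nucleus, pairs with ARNT and binds the xenobiotic response element (XRE) near genes of drug metabolism. Cyp1a1 and Cyp1b1 encode cytochrome P450 enzymes, Nqo1 encodes a quinone reductase that also answers to the oxidative stress factor NRF2, and Ahrr and Tiparp encode proteins that restrain the receptor. Cells make ligands from tryptophan along the kynurenine branch, opened by IDO1 and continued by KYNU, and by the amino acid oxidase IL4I1, which gives indole-3-pyruvate. Macrophages, barrier lymphocytes and vascular cells are known to express Ahr.

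The sequence just before the start site of each target gene is given first, because the XRE core lies in some of these windows and not in others. Windows of 250 bases came from the RefSeq promoter table of build GRCm38.p6, which held 7 of the 10 genes, and are written 5′ to 3′ on the gene's strand. Ahrr is read at chr13:74292332-74292581 on the minus strand, Cyp1a1 at chr9:57697363-57697612 on the plus strand, Cyp1b1 at chr17:79715062-79715311 on the minus strand, Tiparp at chr3:65528197-65528446 on the plus strand and Nqo1 at chr8:107403206-107403455 on the minus strand. Capitals mark the XRE core GCGTG, read on either strand (CACGC on the printed one).
Ahrr: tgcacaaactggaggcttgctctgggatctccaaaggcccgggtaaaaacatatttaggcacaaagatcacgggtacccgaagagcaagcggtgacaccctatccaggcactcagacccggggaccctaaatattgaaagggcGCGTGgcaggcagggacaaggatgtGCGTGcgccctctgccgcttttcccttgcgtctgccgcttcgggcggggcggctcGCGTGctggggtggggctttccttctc
Cyp1a1: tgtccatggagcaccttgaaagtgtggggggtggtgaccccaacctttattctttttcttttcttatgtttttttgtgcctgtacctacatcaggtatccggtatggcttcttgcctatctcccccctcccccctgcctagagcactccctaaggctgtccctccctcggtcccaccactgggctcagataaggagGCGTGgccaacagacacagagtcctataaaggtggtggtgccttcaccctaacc
Cyp1b1: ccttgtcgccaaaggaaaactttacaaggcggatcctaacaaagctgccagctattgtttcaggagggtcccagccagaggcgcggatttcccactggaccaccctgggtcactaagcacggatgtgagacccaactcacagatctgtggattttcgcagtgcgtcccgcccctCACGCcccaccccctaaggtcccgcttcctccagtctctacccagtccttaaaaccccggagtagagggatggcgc
Tiparp: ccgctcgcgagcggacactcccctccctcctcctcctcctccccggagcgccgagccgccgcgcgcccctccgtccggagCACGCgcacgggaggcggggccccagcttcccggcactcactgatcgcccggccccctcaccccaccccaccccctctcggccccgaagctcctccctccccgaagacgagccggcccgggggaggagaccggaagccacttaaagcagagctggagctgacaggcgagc
Nqo1: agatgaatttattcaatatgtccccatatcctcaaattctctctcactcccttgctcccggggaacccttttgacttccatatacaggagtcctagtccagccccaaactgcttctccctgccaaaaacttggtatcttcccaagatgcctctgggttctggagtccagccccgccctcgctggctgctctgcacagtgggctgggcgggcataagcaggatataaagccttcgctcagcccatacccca
The Ahrr window held 3 cores, the first letters of which lie 107, 82 and 27 bases before the start site, and the last of them is part of the longer form TNGCGTG. Cyp1a1 held 1 core 54 bases before its start, Cyp1b1 held 1 at 76 bases and Tiparp 1 at 170 bases, and Nqo1 held none. The core is short and common. It was in 28.2% of the 32851 promoter windows of this length, and 3 or more copies were in 2.77%. TNGCGTG, which contains the core, was in 4.1%. The antioxidant response element core TGACNNNGC, through which NRF2 acts and whose final GC can also begin an XRE core, was in 10.2% of windows and not in that of Nqo1. The enhancer known to carry most AHR binding at Cyp1a1 lies further upstream than this window, and a match only describes these letters.

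Library totals ran from 13548003 to 17281262 estimated counts with a median of 15681333, so depth differed little. Below, a level is in CPM, the count scaled to the library's total and TMM factor, and "rose" or "fell" means an adjusted p under 0.05 in edgeR's quasi-likelihood test over the 14431 genes kept. Of the 10 genes, 8 were tested and Ido1 and Kynu were too low. The 6 smooth muscle markers summed to between 11730 and 59710 CPM and the 6 endothelial markers to between 252 and 1031 CPM, so every library held aortic wall. The libraries FeAAD5, MaAAD7, FeAAD9 and MaAAD1 correlated least with the others (mean r from 0.933 to 0.968), and results that change without these 4 are given both ways.

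Among these genes Arnt and Cyp1b1 were the most abundant and the receptor was scarce. Divided by the longest coding transcript, the mean level in FeCon was 20.0 CPM per kb for Arnt, 18.9 for Cyp1b1, 11.4 for Nqo1 and 3.66 for Tiparp. On the same scale Ahr stood at 0.74, Cyp1a1 at 0.411, Il4i1 at 0.124, Ahrr at 0.0994, Ido1 at 0.0814 and Kynu at 0.0123 CPM per kb. The plot of levels by library shows the spread behind these means.

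**Figure D1:**
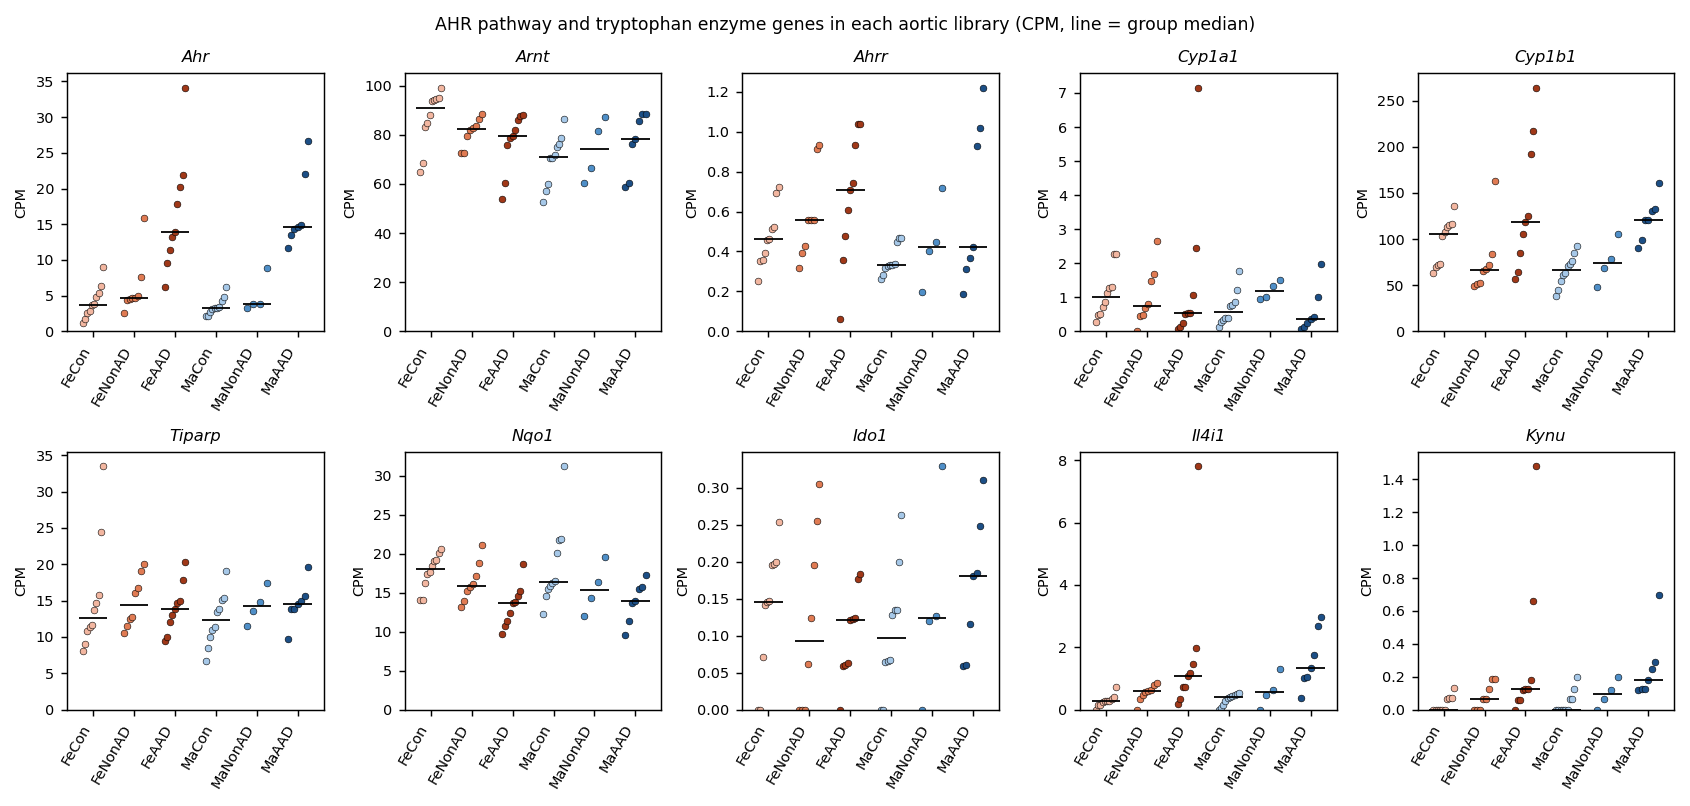
Level of each of the 10 genes (CPM, linear axis from 0) in each library by group, with the group median as a line. Ahr was higher in all 7 MaAAD libraries than in any MaCon library. Within each sex the ranges of all other genes overlapped between groups, as did those of Ahr between the female groups.

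Ahr rose in aortas with AAD in both sexes and was the gene of the 10 with the clearest change. In females it ran from 1.12 to 8.98 CPM in FeCon (median 3.71), from 2.55 to 15.9 CPM in FeNonAD (median 4.67) and from 6.19 to 34.1 CPM in FeAAD (median 13.9). In males it ran from 2.08 to 6.22 CPM in MaCon (median 3.26), stood at 8.92, 3.31, 3.81 and 3.87 CPM in the 4 MaNonAD libraries, and ran from 11.7 to 26.7 CPM in MaAAD (median 14.6). MaAAD lay above every MaCon and every MaNonAD library, and 8 of the 9 FeAAD libraries lay above every FeCon library, FeAAD3 being the exception. Among all genes tested, 6.14% lay wholly higher in MaAAD than in MaCon in this way, and 2.97% wholly higher in MaAAD than in MaNonAD.

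The fold changes of Ahr were 4.00 in FeAAD vs FeCon (log2 2.00 ± 0.309 SE, adjusted p = 1.03e-06) and 4.77 in MaAAD vs MaCon (log2 2.25 ± 0.325, adjusted p = 4.7e-07). FeAAD exceeded FeNonAD 2.68-fold (adjusted p = 0.00145). MaAAD stood 3.37-fold above MaNonAD (log2 1.75, 95% interval 0.87 to 2.64), with an adjusted p of 0.0502 that just missed the threshold. That last p depended on the setting: it was 0.00488 with DESeq2 and 0.0152 without the 4 libraries named above, and from 0.0152 to 0.288 when 1 library was left out. In NonAD the difference did not pass in either sex, with log2 0.58 (-0.06 to 1.22) in FeNonAD vs FeCon and 0.50 (-0.29 to 1.29) in MaNonAD vs MaCon. The order of the group means was MaCon (3.52 CPM), FeCon (4.10), MaNonAD (4.98), FeNonAD (6.14), FeAAD (16.5) and MaAAD (16.8), in which FeNonAD and FeAAD were the only neighbours that passed a test, and FeCon with MaNonAD was the one neighbouring pair not tested. Without the 4 libraries the log2 fold change was 1.69 in females and 2.22 in males, and both still passed.

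Against the background, 3 of the 8 tested genes passed in FeAAD vs FeCon, 2 higher and 1 lower, where 44.4% of all genes did (23.8% higher and 20.6% lower). In MaAAD vs MaCon 4 of 8 passed, 3 higher and 1 lower, where 35% of all genes did (18.9% higher and 16.1% lower). In FeAAD vs FeNonAD 3 of 8 passed, against 18.2% of all genes. None passed in FeNonAD vs FeCon, MaNonAD vs MaCon or MaAAD vs MaNonAD, where 14.5%, 0.624% and 0.409% of all genes did. At an unadjusted p under 0.05 edgeR gave 0, 0 and 2 of the 8 (Ahr and Cyp1b1), and DESeq2 called 0, 0 and 1 after adjustment. The median log2 fold change of the 8 genes was 0.41 in FeAAD vs FeCon and 0.53 in MaAAD vs MaCon, beside 0.00 and -0.03 over all genes. The plot of fold changes shows that Ahr and Il4i1 rose over controls in both sexes, and Cyp1b1 in males.

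**Figure D2:**
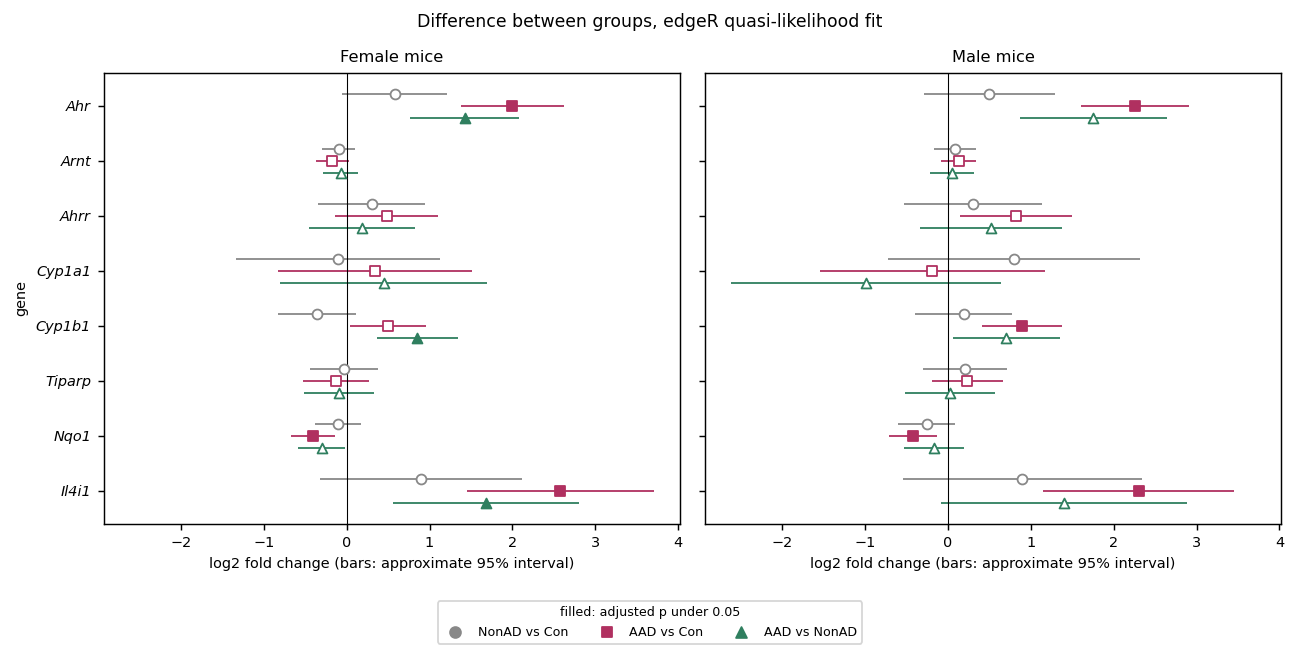
Log2 fold change of the 8 tested genes in 3 comparisons within each sex, with approximate 95% intervals. Filled points have an adjusted p under 0.05: Ahr and Il4i1 lie above 2 in AAD vs Con in both sexes, Nqo1 lies at -0.41 and -0.42, and Arnt and Tiparp stay near 0.

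The receptor's partner did not follow it. Arnt ran from 64.7 to 99.1 CPM in FeCon and from 53.9 to 88.1 CPM in FeAAD, and from 52.6 to 86.5 CPM in MaCon and from 58.8 to 88.6 CPM in MaAAD, so that all 4 ranges overlapped. Its log2 fold change was -0.17 in FeAAD vs FeCon (95% interval -0.37 to 0.03, adjusted p = 0.155) and 0.13 in MaAAD vs MaCon (-0.08 to 0.34, adjusted p = 0.336). Without the 4 libraries the male value was 0.28 with an adjusted p of 0.0212. Arnt was the only one of the 8 tested genes that passed between the control sexes, being lower in MaCon than in FeCon (log2 -0.31 ± 0.096, adjusted p = 0.0244), where 14.3% of all genes passed.

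Of the 14 other genes listed for the receptor complex and its partners, 3 rose and 3 fell in FeAAD vs FeCon, and 1 rose and 5 fell in MaAAD vs MaCon. These shares, 6 of 14 in each sex, stand beside 44.4% and 35% of all genes. The median of the list was -0.17 in females and -0.21 in males on the log2 scale. Hsp90aa1, the chaperone that holds AHR in the cytoplasm, fell in MaAAD vs MaCon by 1.15 on the log2 scale (adjusted p = 6.28e-05), from a mean of 617 to 278 CPM, and in MaNonAD vs MaCon by 1.08 (adjusted p = 0.0498). In FeAAD vs FeCon Hsp90aa1 gave log2 -0.37 (adjusted p = 0.14), and the sex difference in its AAD response did not pass (adjusted p = 0.17). Hif1a, the hypoxia factor that also pairs with ARNT, rose in both sexes (log2 0.65 and 0.64, adjusted p = 0.0027 and 0.00753). Epas1, which encodes the related factor HIF2α, fell in FeAAD vs FeCon (log2 -0.65, adjusted p = 0.000434). Arnt2, a close relative of Arnt, rose there (log2 0.78, adjusted p = 0.00897). In MaAAD vs MaCon Epas1 gave log2 -0.31 (adjusted p = 0.126) and Arnt2 0.51 (adjusted p = 0.134). For neither did the sex difference in the AAD response pass.

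Of the 5 target genes, Cyp1b1 rose, Nqo1 fell and the others passed no test. Cyp1b1 was the only target that rose. It ran from 62.7 to 136 CPM in FeCon (median 105), from 49.1 to 163 CPM in FeNonAD (median 66.5) and from 57.2 to 264 CPM in FeAAD (median 118), so the female groups overlapped. In males it ran from 37.8 to 92.5 CPM in MaCon (median 66.8), stood at 105, 47.9, 68.9 and 78.4 CPM in MaNonAD, and ran from 90.2 to 161 CPM in MaAAD (median 121), where 6 of 7 libraries lay above all MaCon libraries. It rose 1.86-fold in MaAAD vs MaCon (log2 0.90 ± 0.242, adjusted p = 0.00301) and 1.81-fold in FeAAD vs FeNonAD (log2 0.85 ± 0.244, adjusted p = 0.011). The latter call was lost when only those groups were in the fit (adjusted p = 0.0921). FeAAD vs FeCon gave log2 0.50 (0.04 to 0.95, adjusted p = 0.0718), and left out singly, FeCon10, FeAAD3, FeAAD8 and FeAAD9 each brought it below the threshold (adjusted p from 0.0269 to 0.0477), while without FeAAD6, the highest library, log2 was 0.32 (adjusted p = 0.258). The female increase over FeNonAD began from a group whose median was below that of FeCon.

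Nqo1 went the other way. It ran from 14.0 to 20.6 CPM in FeCon (median 18.0), from 13.2 to 21.1 CPM in FeNonAD (median 15.9) and from 9.64 to 18.6 CPM in FeAAD (median 13.6), and 6 of 9 FeAAD libraries lay below every FeCon library. In males it ran from 12.2 to 31.2 CPM in MaCon (median 16.4) and from 9.58 to 17.2 CPM in MaAAD (median 13.9). Nqo1 fell by 0.41 on the log2 scale in FeAAD vs FeCon (SE 0.133, adjusted p = 0.0111) and by 0.42 in MaAAD vs MaCon (SE 0.143, adjusted p = 0.0176). The male call was lost without MaCon5 (log2 -0.29, adjusted p = 0.0858), which held the highest value, with only those groups in the fit (log2 -0.39, adjusted p = 0.0727), without MaAAD1 (log2 -0.33, adjusted p = 0.0663), and without the 4 libraries (log2 -0.27, adjusted p = 0.158).

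Tiparp, Ahrr and Cyp1a1 passed in no comparison. Tiparp medians lay between 12.3 and 14.5 CPM in all 6 groups, and its log2 fold change was -0.13 in FeAAD vs FeCon (-0.52 to 0.27, adjusted p = 0.64) and 0.24 in MaAAD vs MaCon (-0.19 to 0.66, adjusted p = 0.405). Its highest values were in FeCon7 (33.5 CPM) and FeCon9 (24.5 CPM), the libraries with the lowest Ahr (1.12 and 1.69 CPM) and the highest Per1 (501 and 683 CPM), a gene of the circadian clock. Ahrr, at 1 to 21 counts per library, had a median of 0.461 CPM in FeCon and 0.706 in FeAAD, and of 0.333 in MaCon and 0.422 in MaAAD. Its log2 fold change was 0.48 in FeAAD vs FeCon (adjusted p = 0.207). MaAAD vs MaCon gave 0.82 ± 0.335 (SE, adjusted p = 0.0502), where 3 of 7 MaAAD libraries were above and 1 was below all MaCon libraries. The male value sits at the threshold and both move with the libraries kept, with adjusted p from 0.0175 to 0.206 over the male fits that left out 1 library, and 0.0236 in females without the 4 libraries.

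Cyp1a1, the gene most often used as a readout of AHR activity, was barely transcribed, at 0 to 118 counts per library. Its medians were 0.996 CPM in FeCon, 0.74 in FeNonAD and 0.54 in FeAAD, and 0.566 in MaCon, 1.17 in MaNonAD and 0.369 in MaAAD. The highest library was FeAAD8 at 7.15 CPM, and FeAAD5, which had the highest Ahr of all, was at 0.0592 CPM. The log2 fold changes were 0.34 in FeAAD vs FeCon (-0.83 to 1.52) and -0.19 in MaAAD vs MaCon (-1.54 to 1.17), so a change in either direction was not detectable at this depth.

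The log2 ratio of Ahr counts to those of each target and of Arnt was also taken within each library, with 0.5 added to both counts. It was compared between groups by a two-sided exact permutation test. These 36 tests were chosen after the values had been seen, with Benjamini-Hochberg adjustment over all of them. The ratio of Ahr to any gene that stays level rises when Ahr rises. A passing ratio therefore shows that a gene did not rise as much as Ahr, and does not set it apart from other genes. No share over all genes is given for these ratios. In FeAAD vs FeCon all 6 ratios were higher, from 1.70 for Cyp1b1 to 2.69 for Cyp1a1 (exact permutation test, adjusted p from 0.000463 to 0.0104). In MaAAD vs MaCon all 6 were higher too, from 1.35 for Cyp1b1 to 2.83 for Cyp1a1 (exact permutation test, adjusted p from 0.000463 to 0.0013). The Cyp1a1 ratios average logs of low counts, from 1 in FeAAD5 to 118 in FeAAD8, so their size is uncertain. No change of Cyp1a1 itself was detectable by edgeR. For Tiparp in males the mean log2 ratio went from -1.82 ± 0.43 (SD, n = 10) in MaCon to 0.17 ± 0.504 (SD, n = 7) in MaAAD, and these ranges did not meet. In MaAAD vs MaNonAD 6 of 6 ratios passed, in FeAAD vs FeNonAD 4 of 6, in FeNonAD vs FeCon 1 of 6 (Cyp1b1, 1.02, exact permutation test, adjusted p = 0.00671), and in MaNonAD vs MaCon 0 of 6. Without the 4 libraries all 6 ratios still passed in both AAD vs Con comparisons, and 3 of 6 in FeAAD vs FeNonAD.

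Within groups, of 25 correlations of log2(CPM + 1), Ahr with 5 targets in the 5 groups of at least 6 libraries, 1 passed after adjustment, and it was negative. Nqo1 ran against Ahr in FeAAD with Pearson r = -0.93 (exact permutation p = 0.000725, adjusted p = 0.0181) and Spearman rho = -0.85 (exact permutation p = 0.00607, adjusted p = 0.152), and r was -0.77 without FeAAD5 and FeAAD3. The number that passed depended on single libraries. It was 0 without FeAAD3, FeAAD5 or FeAAD7, 2 without FeNonAD3 and 4 without MaCon4. In the other groups the r of Nqo1 was -0.77 in MaCon (adjusted permutation p = 0.0752), -0.49 in FeCon, -0.47 in FeNonAD and -0.071 in MaAAD. Cyp1b1 had a positive r in all 5 groups, from 0.21 in MaAAD to 0.92 in FeNonAD, but none passed. The FeNonAD value (adjusted exact permutation p = 0.0752, rho = 0.52) dropped to 0.57 without FeNonAD8 and FeNonAD7. The r of Tiparp ran from -0.60 in FeCon to 0.57 in MaCon, that of Ahrr from -0.46 in FeAAD to 0.76 in MaAAD and that of Cyp1a1 from -0.38 in FeAAD to 0.42 in MaCon, and none of these passed. Without the 2 libraries farthest from the Ahr median, Tiparp had -0.33 and 0.29 in FeCon and MaCon, Ahrr -0.43 and 0.24 in FeAAD and MaAAD, and Cyp1a1 -0.78 and -0.29 in FeAAD and MaCon, so that the MaCon value of Cyp1a1 changed sign.

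**Figure D3:**
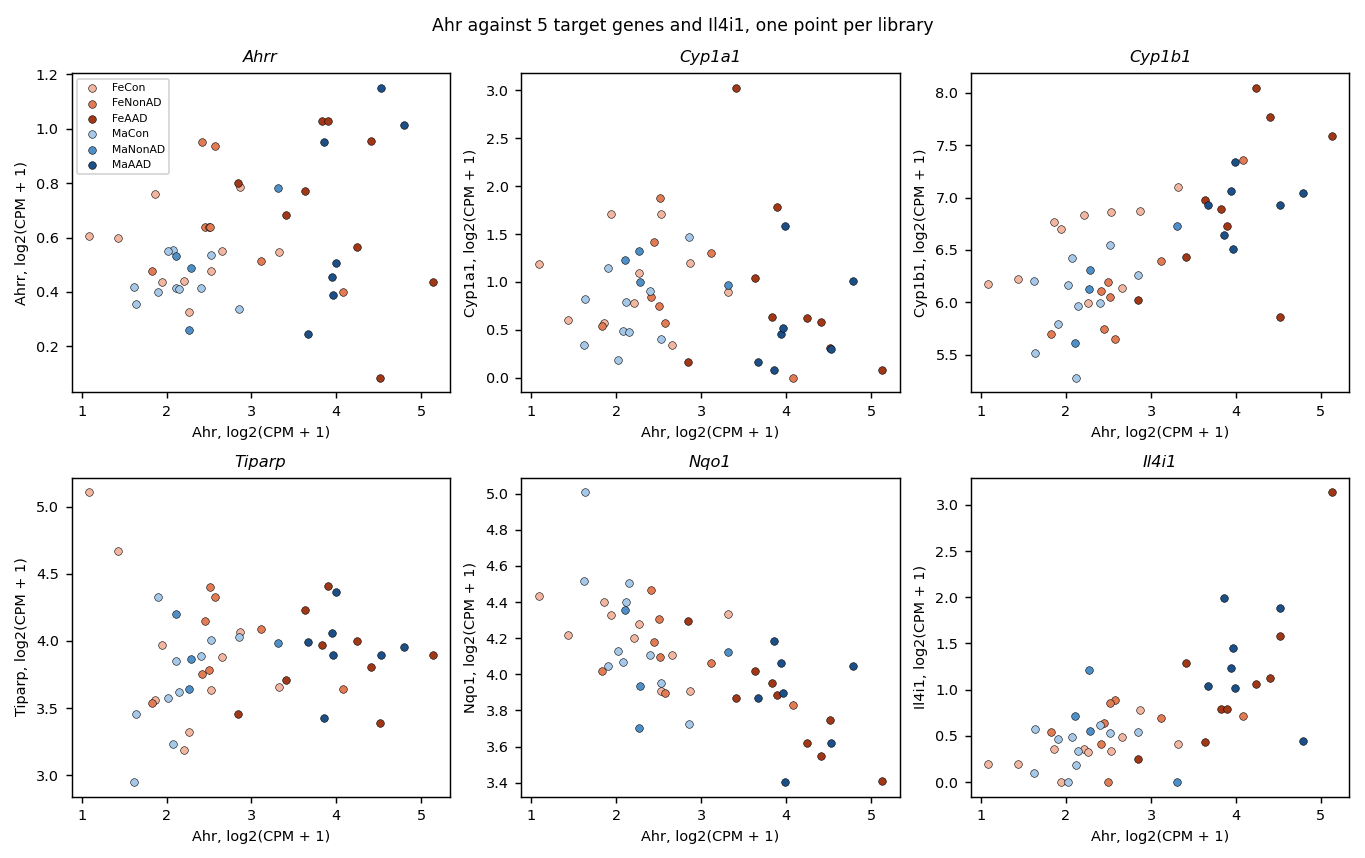
Ahr against Ahrr, Cyp1a1, Cyp1b1, Tiparp, Nqo1 and Il4i1, each as log2(CPM + 1), with 1 point per library coloured by group. Most AAD points lie to the right of the controls for Ahr, many lie higher for Cyp1b1 and Il4i1 and lower for Nqo1, and for Tiparp they overlap the controls.

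Centred on the group means and taken over all 48 libraries, genes with a pattern among the most like that of Ahr were Ptpre (r = 0.82), a phosphatase, Psd4 (0.81), Rai14 (0.80) and Apobec3 (0.79), an antiviral deaminase. On this scale Cyp1b1 had r = 0.58 and stood 324th of 11972 genes. Il4i1 had r = 0.36, Arnt -0.02, Ahrr -0.04, Tiparp -0.13, Cyp1a1 -0.15 and Nqo1 -0.51. These values describe 48 libraries that share tissue composition, and carry no test.

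Cell type markers moved between the same groups as Ahr. Of 10 macrophage markers 9 rose and 1 fell in AAD vs Con in each sex, and their summed level ran from 479 to 812 CPM in FeCon, from 515 to 1159 in FeNonAD and from 793 to 5975 in FeAAD. In males it ran from 451 to 739 CPM in MaCon, from 676 to 1045 in MaNonAD and from 959 to 4039 in MaAAD. All 6 smooth muscle markers fell in both sexes, with a sum from 30040 to 51830 CPM in FeCon and from 13830 to 31670 in FeAAD, and from 27510 to 59710 in MaCon and from 11730 to 29180 in MaAAD. Of 8 dendritic cell markers 7 rose in each sex, and of 6 neutrophil markers 6 rose in females and 5 in males. Over all genes 23.8% rose and 20.6% fell in the female comparison, and 18.9% and 16.1% in the male one. No marker of these lists was at 0 in every library. The part of cell composition in the rise of Ahr was not tested.

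Pairs of 5 of the genes with the summed macrophage, smooth muscle and fat cell markers were also correlated within groups, a choice made after the values had been seen. Of 75 pairs 5 passed by Pearson r after adjustment, each at an adjusted permutation p of 0.0478, and 0 by Spearman rho, for which the lowest adjusted p was 0.0625. Ahr was lower where smooth muscle markers were higher in both control groups, with r = -0.87 in MaCon (permutation p = 0.00128, rho = -0.79, and r = -0.72 without the 2 libraries farthest from the median) and r = -0.82 in FeCon (permutation p = 0.00319, rho = -0.79, and r = -0.90 without 2). In FeAAD, FeNonAD and MaAAD that r was -0.83, -0.75 and -0.49. With macrophage markers the r of Ahr was 0.77 in FeAAD, 0.83 in FeNonAD and 0.73 in MaAAD, but 0.14 in FeCon and 0.045 in MaCon, and none of these passed. Nqo1 was higher with higher smooth muscle markers in MaCon (r = 0.82, permutation p = 0.00313, rho = 0.89, and r = 0.61 without 2). Cyp1a1 was higher with higher fat cell markers in MaAAD (r = 0.92, exact permutation p = 0.00218, rho = 0.96, and r = 0.67 without 2), with r from 0.37 to 0.80 in the other groups, and lower with higher smooth muscle markers there (r = -0.95, exact permutation p = 0.00238, rho = -0.82, and r = -0.88 without 2). Fat cell markers, which come from tissue around the vessel, summed to between 116 and 3207 CPM over all libraries.

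**Figure D4:**
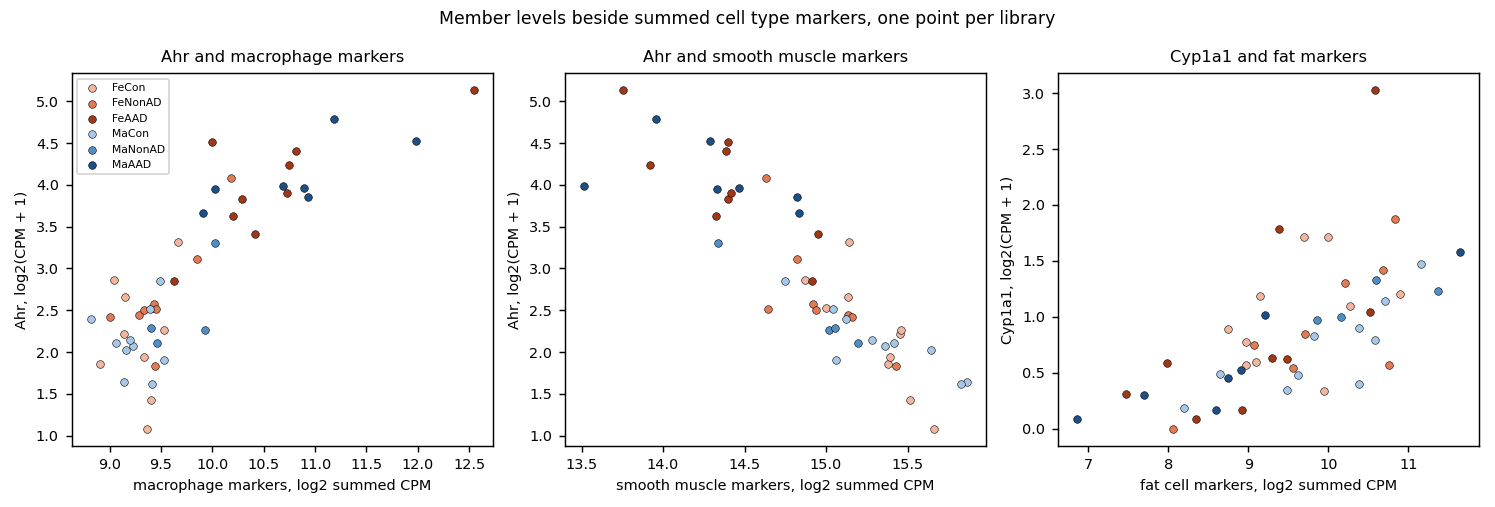
Ahr as log2(CPM + 1) against the log2 summed CPM of macrophage and of smooth muscle markers, and Cyp1a1 against that of fat cell markers, with 1 point per library. The r of Ahr with smooth muscle markers passed by Pearson in MaCon and FeCon (-0.87 and -0.82), and that of Cyp1a1 with fat cell markers in MaAAD (0.92), and no pair passed by Spearman rho.

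Clock genes also differed between the groups, and the hour at which each mouse was killed is not given, although the study's methods place fecal sampling in the morning, shortly before the mice were killed. Arntl, which encodes the clock factor BMAL1, ran from 27.2 to 63.1 CPM in the MaCon libraries apart from MaCon5 (1.62 CPM), but from 2.04 to 11.4 CPM in MaNonAD and from 2.40 to 8.04 CPM in MaAAD. MaCon5 had 2.11 CPM of Ahr, below all MaAAD libraries. In females Arntl ran from 2.03 to 41.9 CPM in FeCon and from 2.35 to 39.6 CPM in FeAAD. FeAAD6, FeAAD7 and FeAAD9, with Arntl at 28.0 CPM or more, had Ahr at 17.9, 20.2 and 21.9 CPM, above every FeCon library. The part of the clock in these values was not tested.

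Of the 17 other genes listed as AHR targets, 16 were in the table and 13 were tested. In FeAAD vs FeCon 5 rose and 5 fell, and in MaAAD vs MaCon 5 rose and 3 fell. In FeNonAD vs FeCon 5 fell and none rose. Over all genes 44.4%, 35% and 14.5% passed in these comparisons. Scin, listed with its female fall already known, is among the genes that fell in each of them. The medians were 0.28 and 0.57 on the log2 scale in the AAD comparisons of females and males. Ugt1a7c, a glucuronosyltransferase of drug metabolism, rose 3.57-fold in FeAAD and 6.40-fold in MaAAD over controls (adjusted p = 8.97e-06 and 5.43e-08), from 2.64 to 9.45 CPM and from 2.03 to 13.1 CPM. Its exons are partly shared with Ugt1a6a and Ugt1a6b, so counts could be split between them. Lpcat2, a lipid-remodelling enzyme of inflammatory cells, rose 3.19-fold and 3.47-fold (adjusted p = 7.14e-06 and 7.35e-06). Ereg, which encodes the growth factor epiregulin, rose by log2 0.96 and 0.58 (adjusted p = 8.38e-05 and 0.0254). Serpinb2 rose in females (adjusted p = 0.000137), where FeAAD averaged 0.858 CPM. All 10 FeCon libraries had 3 counts or fewer, so none of them helped it past the filter on low counts. In males it gave log2 1.93 (adjusted p = 0.0678), with no passing difference between the sexes (adjusted p = 0.345). Fos, an immediate early gene that many stimuli induce, rose in females (log2 1.72, adjusted p = 0.000687) and gave log2 -0.31 in males (adjusted p = 0.619). The sex difference in its AAD response did not pass (male minus female log2 -2.03, adjusted p = 0.0751), and its level was lower in MaAAD than in FeAAD (log2 -2.15, adjusted p = 0.0498).

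Other genes of this list fell. Gstm1, a glutathione transferase, fell by 1.35 on the log2 scale in FeAAD vs FeCon (adjusted p = 5.8e-07) and by 1.26 in MaAAD vs MaCon (adjusted p = 1.11e-05), from 772 to 303 CPM and from 723 to 302 CPM. Aldh3a1, an aldehyde dehydrogenase and classical AHR target, fell by 0.70 and by 0.77 (adjusted p = 0.0261 and 0.0276). Scin, an actin-severing protein, stood at 10.0 CPM in FeCon against 1.98 in MaCon, and at 0.961 CPM in FeAAD and 0.874 in MaAAD. It fell by 3.37 on the log2 scale in females and by 1.17 in males (adjusted p = 8.07e-11 and 0.00297), and its female fall was known when the list was made. In females it fell by 3.05 in FeNonAD vs FeCon (adjusted p = 5.71e-09), and FeAAD vs FeNonAD gave log2 -0.33 (-0.95 to 0.30, adjusted p = 0.489). The difference between the sexes in this AAD response was 2.20 (adjusted p = 0.00431). Slc7a5, a transporter of tryptophan and other large amino acids, moved in opposite directions. It fell by 0.75 in FeAAD vs FeCon (adjusted p = 0.0035) and rose by 0.69 in MaAAD vs MaCon (adjusted p = 0.0153), a difference of 1.44 ± 0.311 (SE, adjusted p = 0.0112). FeCon held 40.7 CPM of it against 17.1 CPM in MaCon. In females it fell further in FeNonAD vs FeCon, by 1.48 (adjusted p = 2.53e-05), and rose by 0.73 from FeNonAD to FeAAD (adjusted p = 0.0216).

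**Figure D5:**
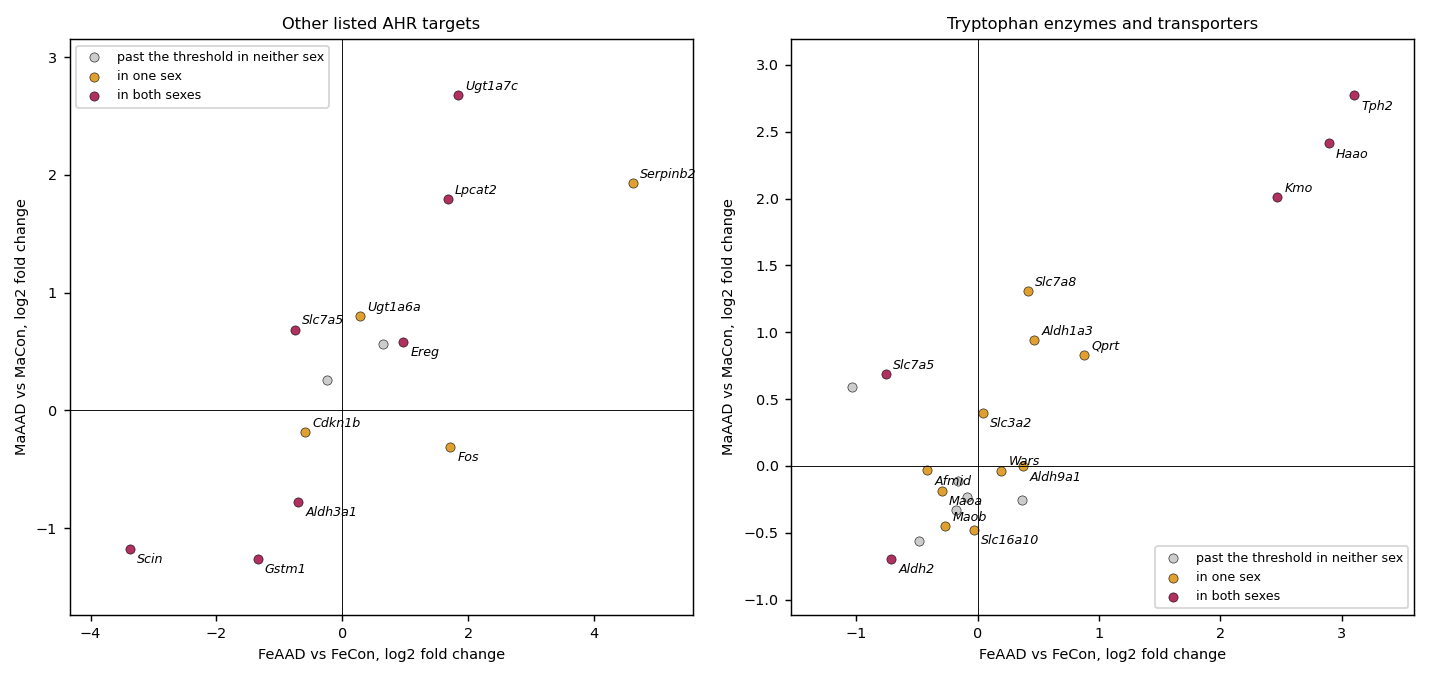
Log2 fold change in FeAAD vs FeCon (horizontal) against MaAAD vs MaCon (vertical) for the other listed AHR targets and for the tryptophan enzymes and transporters, coloured by the number of sexes with adjusted p under 0.05. Ugt1a7c, Lpcat2, Kmo and Haao rose in both sexes, Gstm1, Aldh3a1, Scin and Aldh2 fell in both, and Slc7a5 lies in the upper left.

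Because Nqo1 is shared with NRF2, 10 other NRF2 targets were counted. In MaAAD vs MaCon 8 rose and none fell, and in FeAAD vs FeCon 4 rose and 1 fell. Over all genes 18.9% rose and 16.1% fell in the male comparison, and 23.8% and 20.6% in the female one. Hmox1, the heme oxygenase that degrades heme, rose 19.6-fold in males and 4.97-fold in females (adjusted p = 5.75e-07 and 0.000769), from 15.4 to 302 CPM and from 40.7 to 202 CPM. Slc7a11, a cystine transporter, rose 9.24-fold and 9.39-fold (adjusted p = 1.61e-05 and 1.24e-05), and Akr1b8, an aldo-keto reductase, 2.21-fold and 2.05-fold (adjusted p = 1.54e-06 and 2.48e-06). Gsr, the glutathione reductase, also rose in males and females (log2 0.85 and 0.76, adjusted p = 0.000882 and 0.00114). Gclc, a subunit of the enzyme that makes glutathione, fell in females by 0.78 (adjusted p = 2.87e-06), and its change differed between the sexes by 0.81 (adjusted p = 0.0174), from control levels of 52.98 CPM in FeCon and 30.6 CPM in MaCon.

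Among the tryptophan enzymes, Il4i1 rose in AAD and Ido1 did not. Il4i1 ran from 0 to 0.723 CPM in FeCon (median 0.269), from 0 to 0.853 in FeNonAD (median 0.585) and from 0.186 to 7.81 in FeAAD (median 1.08), and 7 of 9 FeAAD libraries lay above every FeCon library. In males it ran from 0 to 0.535 CPM in MaCon (median 0.392), stood at 0, 0.637, 1.31 and 0.468 CPM in MaNonAD, and ran from 0.359 to 2.97 in MaAAD (median 1.35), where 6 of 7 lay above every MaCon library. It rose 5.98-fold in FeAAD vs FeCon (log2 2.58 ± 0.559, adjusted p = 0.000199) and 4.93-fold in MaAAD vs MaCon (log2 2.30 ± 0.574, adjusted p = 0.00137). The female value rests partly on FeAAD5, and without it log2 was 1.74 (adjusted p = 0.00497). In FeAAD vs FeNonAD it rose by log2 1.68 (adjusted p = 0.0299), and this call was lost with only those groups in the fit (adjusted p = 0.0989), without FeAAD5 (log2 0.85, adjusted p = 0.321), without the 4 libraries (log2 0.61, adjusted p = 0.562), and without FeNonAD2, FeNonAD4 or FeNonAD7 (adjusted p from 0.05004 to 0.062). Il4i1 overlaps Nup62 in the annotation and had fractional counts in 11 libraries, so its reads are in part shared and its level is uncertain. Nup62 itself had a mean of 39.0 CPM in FeCon and 42.9 CPM in FeAAD, and of 36.0 CPM in MaCon and 41.4 CPM in MaAAD. Its highest values were in FeAAD5 (67.1 CPM), which also had the highest Il4i1, and, among males, in MaAAD7 (59.6 CPM, with Il4i1 at 2.68 CPM). The part of Nup62 reads in Il4i1 was not tested.

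Ido1, the rate-limiting enzyme of the kynurenine branch, had 0 to 5 counts per library and at most 3 counts in 41 of 48. Its counts summed to 20 over 10 FeCon libraries, 15 over 9 FeAAD, 16 over 10 MaCon and 19 over 7 MaAAD. In all 6 within-sex comparisons the two-sided exact permutation test of log2(CPM + 1), adjusted over the 12 tests of Ido1 and Kynu, gave adjusted p from 0.375 to 0.797, and a difference was not detectable at this depth. Ido2 and Tdo2, the other enzymes able to open the branch, had 3 counts or fewer in all 48 libraries. Kynu, which cleaves kynurenine and 3-hydroxykynurenine, had 0 to 25 counts and was at 0 in 6 of 10 FeCon and 6 of 10 MaCon libraries, 1 of 9 FeAAD and 0 of 7 MaAAD libraries. Its counts summed to 5 in FeCon, 10 in FeNonAD, 47 in FeAAD, 7 in MaCon, 6 in MaNonAD and 30 in MaAAD. Kynu was higher in FeAAD than in FeCon by 0.28 and in MaAAD than in MaCon by 0.25 on the log2(CPM + 1) scale (two-sided exact permutation test, adjusted p = 0.0337 and 0.0148). FeAAD5 (25 counts) and MaAAD7 (12 counts) were the highest libraries, and the female call was lost when FeAAD5, FeAAD6, FeAAD9 or any FeCon library but FeCon2 was left out.

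Further along the branch, 7 of 11 listed enzymes were tested, of which 3 rose and 1 fell in FeAAD vs FeCon and 2 rose in MaAAD vs MaCon, beside 44.4% and 35% of all genes passing, with medians of -0.08 and -0.03. Kmo, the hydroxylase that turns kynurenine towards 3-hydroxykynurenine, rose 5.53-fold in females and 4.03-fold in males (adjusted p = 3.3e-07 and 1.89e-05). It went from 0.634 to 3.57 CPM and from 0.941 to 3.82 CPM, and it also rose in FeNonAD vs FeCon (2.26-fold, adjusted p = 0.0265). Haao, the dioxygenase that precedes quinolinate, rose 7.42-fold and 5.33-fold (adjusted p = 6.34e-06 and 0.000179), to 1.07 CPM in FeAAD and 0.882 CPM in MaAAD. Qprt, which uses up quinolinate, rose 1.84-fold in females (adjusted p = 0.0358) and gave log2 0.83 in males (adjusted p = 0.0794). Afmid, the formamidase that follows IDO1, fell by 0.42 in females (adjusted p = 0.00404).

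Of 16 other tryptophan enzymes and transporters 14 were tested, and 3 rose and 3 fell in FeAAD vs FeCon, and 5 rose and 3 fell in MaAAD vs MaCon, where 44.4% and 35% of all genes passed. Slc7a8, a partner-dependent amino acid transporter, rose 2.48-fold in males (adjusted p = 0.00068), and Aldh1a3, an aldehyde dehydrogenase, 1.92-fold (adjusted p = 0.00817). Tph2, a tryptophan hydroxylase of serotonin synthesis, rose in both sexes (adjusted p = 0.000207 and 0.00194). All 10 FeCon and all 10 MaCon libraries had 3 counts or fewer of it. These controls could not have carried Tph2 past the filter on low counts, so it was tested only because of libraries in other groups. Aldh2 fell by 0.71 and by 0.69 (adjusted p = 1.6e-05 and 0.000101), from 791 to 482 CPM and from 810 to 500 CPM. Interferon gamma is the best known inducer of Ido1. Of 11 tested genes of its response 7 rose in FeAAD vs FeCon and 6 in MaAAD vs MaCon, none falling, where 23.8% and 18.9% of all genes rose. They included Irf8, a transcription factor of myeloid cells (log2 2.25 and 2.45, adjusted p = 3.35e-08 and 3.31e-08), Cxcl10, a chemokine (log2 3.58 and 2.65, adjusted p = 4.51e-05 and 0.00293), and Ciita, the activator of MHC class II genes (log2 2.84 and 2.27, adjusted p = 8.95e-09 and 1.16e-06). Cxcl9, Gbp4 and Gbp5 of this list passed in neither sex. For Cxcl9 the values were log2 1.02 and 0.02 (adjusted p = 0.0609 and 0.979). Ifng, the gene of interferon gamma itself, was not among the genes tested.

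The response of the 10 genes to BAPN was not shown to differ between the sexes. None of the 8 tested genes passed in the difference between sexes of the AAD response, where 1.34% of all genes passed, of the NonAD response (0.416%) or of the step from NonAD to AAD (0%, by edgeR, with 150 genes at an unadjusted p under 0.05 and 1 gene called by DESeq2). At an unadjusted p under 0.05 the only one of the 8 was Arnt, in the AAD response, and DESeq2 called 0 of the 8 in these 3 tests. For Ahr the AAD response was larger in males by 0.25 on the log2 scale (95% interval -0.64 to 1.15), for Cyp1b1 by 0.40 (-0.27 to 1.07), for Nqo1 it was -0.02 (-0.41 to 0.37) and for Tiparp 0.36 (-0.22 to 0.95). None of the 8 passed between MaAAD and FeAAD (0.0901% of all genes) or between MaNonAD and FeNonAD (0.0624%), with 0 at an unadjusted p under 0.05 by edgeR and 0 called by DESeq2 in both.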

How the data were processed

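RNA was sequenced from 48 mouse thoracic aortas, 1 library per mouse. Per the study's methods and the submitters' processing notes, the authors made strand-specific mRNA libraries, aligned reads with Bowtie2 to GRCm39 and deposited expected counts per gene from RSEM 1.3.1. Of these values 4.99% were not whole, and they were rounded before the test. Groups came from the labels. Genes passing filterByExpr were fitted with edgeR 4.0.16 (R 4.3.3, TMM factors from 0.874 to 1.08, robust quasi-likelihood test, 6 group means over 48 libraries), with Benjamini-Hochberg adjustment over 14431 genes. SEs were derived from the F statistic and are approximate. Genes under the filter and ratios were tested by two-sided exact permutation (scipy 1.17.1), and correlations by exact permutation or, with 10 libraries, by 100000 resamples. DESeq2 1.42.0, which the study used, was an alternative. The scripts were tested on simulated data. No 2 libraries held identical values.

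The 10 genes and all lists were chosen with earlier results of these data known. From each other list up to 4 genes that rose and 4 that fell most were eligible to be named, and the 5 genes most like Ahr, and some genes that this rule names are not reported here. The design spoke of counts, and the rounded expected counts were tested the same way. Same-numbered libraries did not deviate together, so the numbers were not used as pairs. Intervals cover the spread between libraries, and the hour of killing of each mouse was not given in the sources used here.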

Additional observations from a re-analysis of the deposited data

Results flagged for a closer look

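In 4 of 60 sets of values (10 genes in 6 groups) 1 library stood far from the rest of its group, where chance gives about 1 in 20. Ahr was 8.92 CPM in MaNonAD1, with the other MaNonAD libraries at 3.31 to 3.87 CPM. Cyp1b1 was 163.0 CPM in FeNonAD8, the library that also had the highest Ahr of its group (15.9 CPM). Il4i1 was 7.81 CPM in FeAAD5, and Kynu was 0.699 CPM in MaAAD7. Each of these flagged libraries had the highest summed macrophage markers of its group, at 1045, 1159, 5975 and 4039 CPM in the order named. MaNonAD1, FeNonAD8 and FeAAD5 also had the lowest summed smooth muscle markers of their groups (20720, 25430 and 13830 CPM), and MaAAD7 did not. The part of cell composition in these values was not tested.

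In 4 comparisons the response differed between the sexes by edgeR's test of the difference itself, given as male minus female on the log2 scale. The AAD response differed by 0.81 for Gclc (adjusted p = 0.0174), by 2.2 for Scin (adjusted p = 0.00431) and by 1.44 for Slc7a5 (adjusted p = 0.0112). The NonAD response of Scin differed by 2.14 (adjusted p = 0.0204). Scin was listed with its female fall in these data already known, so its differences are not an independent finding. For all 3 genes the control levels themselves differed between FeCon and MaCon, at 52.98 against 30.6 CPM for Gclc (adjusted p = 2.87e-05), 10.0 against 1.98 CPM for Scin (adjusted p = 4.77e-08) and 40.7 against 17.1 CPM for Slc7a5 (adjusted p = 7.8e-05). Between MaAAD and FeAAD they gave log2 0.02, -0.14 and 0.19 in the same order, and none passed.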

How the results depend on the processing

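Of the single-gene fold changes compared between the alternatives, none changed sign. Some correlations of Ahr with its targets, none of which had passed, did so without the 2 libraries farthest from the Ahr median, among them Cyp1a1 in MaCon (0.42 to -0.29) and Tiparp in FeAAD (0.085 to -0.42). Among the counts of passing tests, 401 alternative values stayed within 1.5 times the reported count and 31 did not. With only the groups compared in the fit, 1 passed in FeAAD vs FeNonAD (reported 3), 2 in MaAAD vs MaCon (reported 4, where Nqo1 no longer passed and Il4i1 was below the filter) and 2 in MaCon vs FeCon (reported 1). With a log2 fold change of at least 1 also required, 2 passed in MaAAD vs MaCon and 0 in MaCon vs FeCon. In MaAAD vs MaNonAD 1 gene, Ahr, passed with DESeq2, with DESeq2's size factors, without robust estimation and without the 4 AAD libraries least like the others (chosen after seeing the data), and from 0 to 1 when 1 library was left out. Over all genes that comparison gave 59 calls as reported, 769 with DESeq2, 212 with DESeq2's size factors, 117 without robust estimation, 1164 without those 4 libraries, and 0 with no filter, with the replicate block or with only the groups compared. FeAAD vs FeNonAD gave 2625 calls as reported, 1257 with only the groups compared and 1354 without those 4 libraries. MaNonAD vs MaCon gave 90 as reported, 165 with DESeq2, 274 with only the groups compared and 381 without them. The sex difference in the AAD response gave 194 as reported, 418 with DESeq2, 95 with only the groups compared and 391 without them, and that in the NonAD response 60, with 184 by DESeq2 and 224 without them. MaNonAD vs FeNonAD gave 9 as reported and 14 without them, and MaAAD vs FeAAD 13 as reported and 8 with the replicate block or with only the groups compared. Leaving out 1 library gave from 1 to 2 passing tests of Kynu and Ido1 (reported 2) and from 0 to 4 passing correlations of Ahr with targets (reported 1), and CPM without TMM factors gave 2. Of the values of single genes 401 kept their side of the threshold, 25 newly passed and 12 no longer did, among them Cyp1b1 in FeAAD vs FeNonAD with only the groups compared (adjusted p = 0.0921). The cause was not tested.

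With the replicate block the adjusted p of Il4i1 in FeAAD vs FeNonAD was 0.0748 (log2 1.53), and no other call of the 8 genes changed. Correlations of same-numbered libraries averaged from -0.0595 to 0.139 and in no comparison did every pair exceed 0.1. Low counts limit Ahrr, Cyp1a1, Il4i1, Ido1 and Kynu most.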
